A study of Mus musculus with 33 samples.

Results

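RNA from 5 genes of B cell identity and antigen receptor signalling, Ebf1, Blk, Bank1, Prkce and Hvcn1, was followed in B lymphoma cells with and without ZMYND8, in the activated and the unactivated state. The genes were taken by name, with earlier results of these data known. Their values are sums over 78 of the 26591 numbered genomic regions that lay wholly inside exactly 1 annotated gene, and they are 5 of 10750 gene values obtained in this way. The cells were CH12, a mouse B lymphoma line with surface IgM that can switch its heavy chain to IgA on stimulation. ZMYND8 is a nuclear protein whose PHD, bromo and PWWP domains recognise modified histones. The tested lines were KO1 and KO2, each labelled as a clone with a ZMYND8 knockout, and they were set against parental wild-type (WT) CH12 cells and a WT clone. Each of the 4 lines was cultured activated and unactivated, for 48 h and in 3 separate samples, so that 24 libraries of total RNA depleted of ribosomal RNA were obtained. What activated the cells is not given in the labels, nor how far the cultures of a line were separate, so the p-values measure the spread between these cultures. A genotype is represented by 2 lines only.

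The B cell receptor signals through Src family kinases, Syk and a web of adaptors to calcium release, protein kinase C and NFAT and NF-kappaB transcription factors. EBF1 is the transcription factor that, with PAX5 and the E proteins, sets and holds the B lineage program. It binds as a dimer to a palindromic site with the core letters CCCNNGGG. BLK is the Src family kinase found mainly in B lineage cells, BANK1 is a B cell scaffold protein that links Src kinases to calcium release, PRKCE is a calcium-independent, diacylglycerol-activated protein kinase C, and HVCN1 is a voltage-gated proton channel that associates with the receptor and lets the membrane oxidase work by removing protons.

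Library totals ranged from 28.99 to 34.07 M estimated counts, with a median of 32.1 M. Numbered regions took 4.40 to 5.04% of the counts in activated KO libraries, 4.95 to 5.48% in activated WT libraries, 3.78 to 4.75% in unactivated KO libraries and 4.18 to 5.01% in unactivated WT libraries. Of 6 B cell defining markers 3 had such regions, and Pax5, the B lineage factor, averaged 9.10 CPM (counts per 1 M of all estimated counts, scaled between libraries). Cd79a and Cd22 averaged 0.216 and 0.0855 CPM. Of 8 T cell markers 2 had regions, and their summed level was 0.181 to 0.636 CPM in activated KO libraries and at most 0.289 CPM in activated WT libraries. Of 8 myeloid markers 3 had regions, with sums of 0.825 to 1.15 CPM in activated KO libraries and 0.848 to 1.22 CPM in activated WT libraries. Region RNA inside Zmynd8 itself was found in KO libraries at 1.62 to 4.27 CPM and in WT libraries at 1.23 to 3.22 CPM, and the part deleted in the KO lines is not given in the labels, so these values do not check the knockout. Among the unactivated WT libraries, culture 3 of the parental line and culture 2 of the WT clone correlated least with their own groups (median r over gene values 0.909 and 0.907, against 0.927 to 0.933 in the other 4 unactivated WT libraries), so unactivated results are also given without them. Estimated RNA levels of bulk cultures do not tell fewer expressing cells from less RNA per cell.

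The regions are not marked as exon, intron, UTR or strand in the tables, and transcripts were not linked to genes here, so the values are region RNA within a gene's span and not whole-gene expression. A gene or region was called when its edgeR adjusted p, corrected over all 4485 gene values or all targets tested, was under 0.05. In the activated state all 5 genes were called higher in KO lines than in WT lines, where 6.35% of all gene values tested were called higher. In the unactivated state Bank1 and Prkce were called higher, against 3.46% of all gene values. The mean of each KO line lay above the mean of each WT line for 5 of 5 genes in both states. This ordering of line means was seen in 30.2% of all gene values in activated cells and in 21.8% in unactivated cells. Because the 5 genes were chosen with earlier results of these data known, these shares are no test of them as a set. Per kilobase of region the levels in activated KO lines were 1.60 CPM per kb for Hvcn1 and 0.659 for Ebf1. They were 0.352 for Blk, 0.241 for Prkce and 0.148 for Bank1. Blk and Prkce were closer than the SD of Blk (0.139) but not than that of Prkce (0.0522), and Blk averaged 0.242 in KO1 and 0.463 in KO2. In activated WT lines the levels were 0.639 for Hvcn1, 0.388 for Ebf1, 0.130 for Blk, 0.121 for Prkce and 0.0923 for Bank1, with Blk, Prkce and Bank1 within the SD of Blk. In unactivated KO lines they were 1.22 for Hvcn1, 0.462 for Blk, 0.444 for Ebf1, 0.268 for Prkce and 0.197 for Bank1, with Blk and Ebf1 within their SD. In unactivated WT lines they were 0.869 for Hvcn1, 0.339 for Blk, 0.310 for Ebf1, 0.135 for Prkce and 0.124 for Bank1, where Blk and Ebf1, and likewise Prkce and Bank1, were closer than the SD between libraries.

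**Figure D1:**
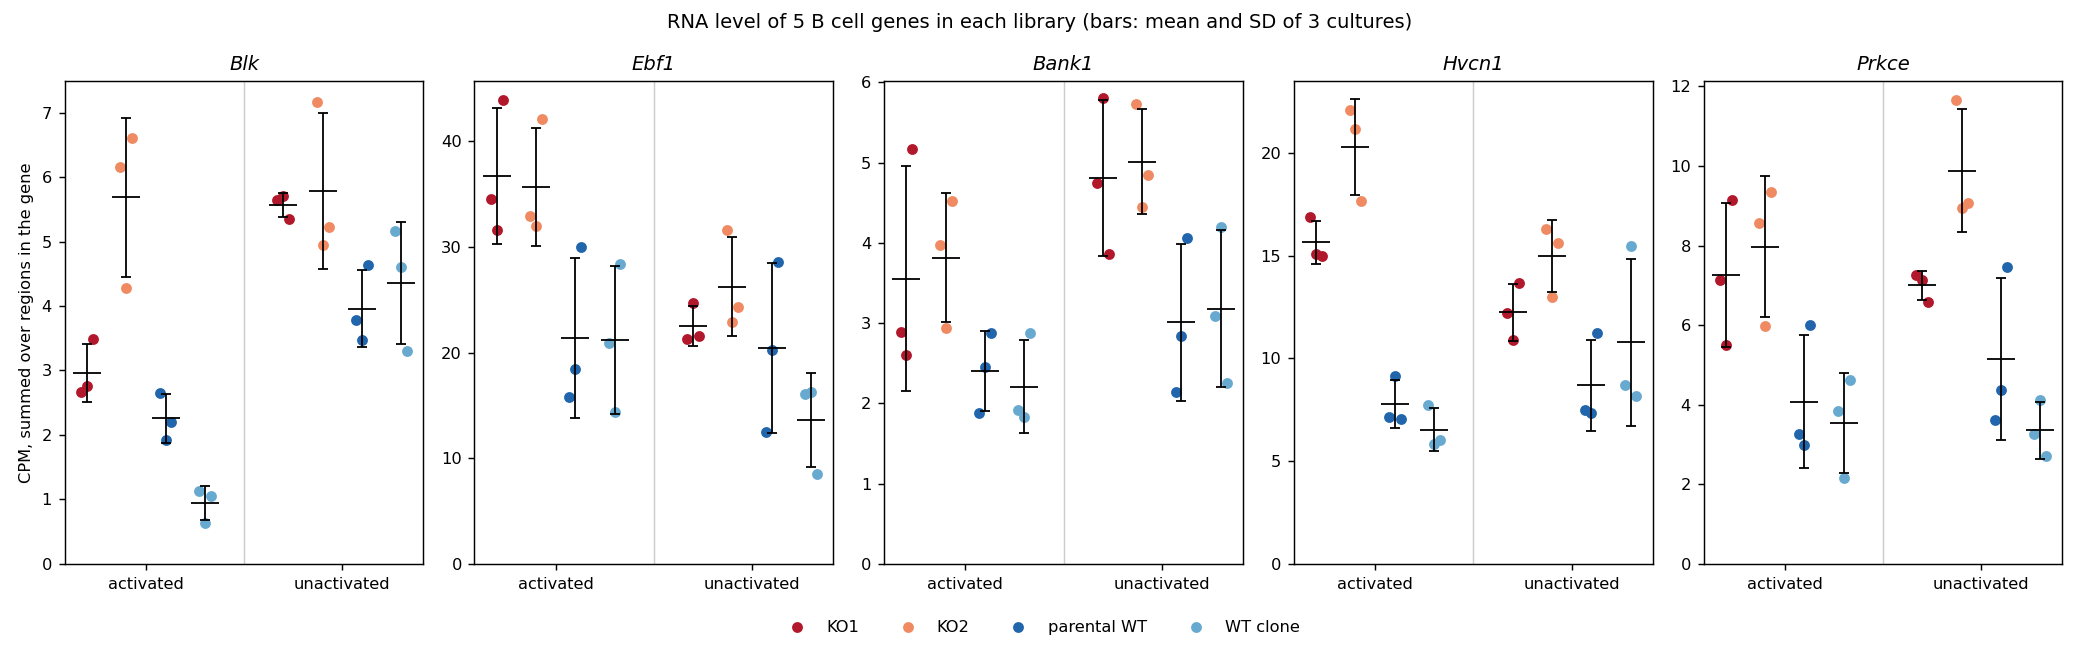
Level of each gene in every library, in CPM summed over its regions, for 4 lines in the activated and unactivated states; points are single cultures, and bars give the mean and SD of 3 cultures. Every activated KO1 and KO2 value of Hvcn1 lies above every activated WT value, as for 3.75% of all gene values. The activated Blk values of KO1 touch those of parental WT.

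**Figure D2:**
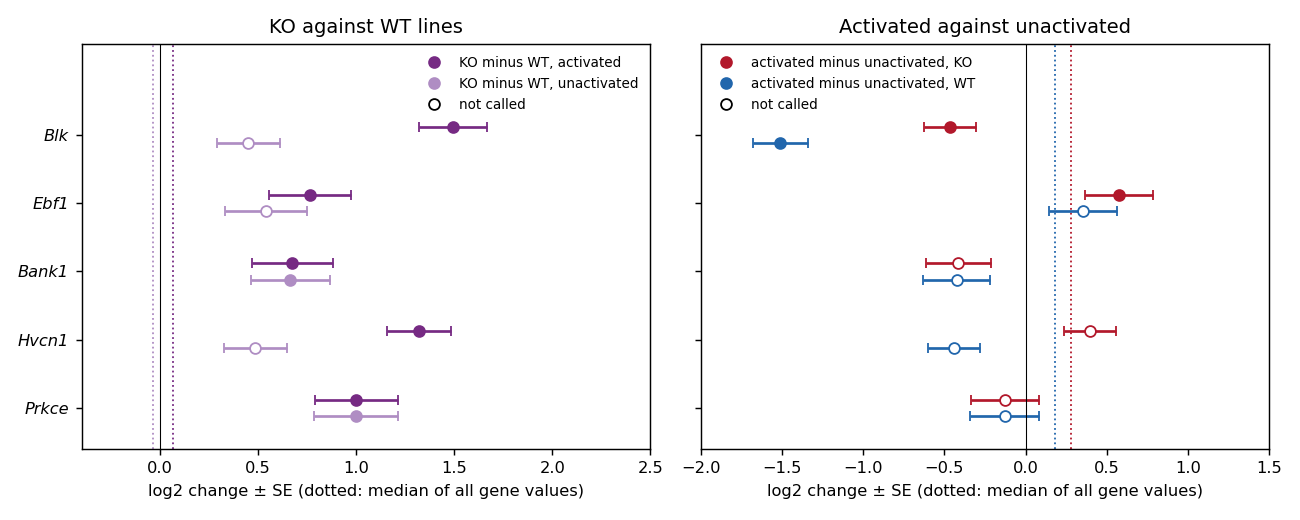
Log2 change ± SE of each gene for KO minus WT lines (left) and for activated minus unactivated cells (right); filled points were called at an adjusted p under 0.05, and dotted lines mark the median over all gene values. All 5 KO minus WT points in activated cells are filled, and Blk is the gene furthest to the left on activation of WT lines.

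Ebf1 lies at chr11:44618100-45008096 (GRCm38), and 30 regions covering 14.1% of this span held 19123 counts over all libraries. Activated cells had 34.6, 31.6 and 43.9 CPM in KO1 and 32.9, 32.0 and 42.1 CPM in KO2, against 15.7, 18.4 and 30.0 CPM in parental WT and 20.9, 14.4 and 28.4 CPM in the WT clone. Every KO library was above every WT library, which held for 3.75% of all gene values. The means were 36.2 ± 5.44 CPM in KO lines and 21.3 ± 6.52 CPM in WT lines (SD, n = 6 each), a log2 change of 0.76 ± 0.21 (SE; edgeR adjusted p = 0.0182). The highest value within each of the 4 lines came from culture 3, as it also did for Bank1 and Prkce in activated cells. In unactivated cells Ebf1 had 21.3, 24.7 and 21.6 CPM in KO1 and 31.6, 22.9 and 24.3 CPM in KO2, against 12.5, 20.3 and 28.6 CPM in parental WT and 16.1, 16.3 and 8.52 CPM in the WT clone. Here the groups overlapped, with the third parental culture above 5 of the 6 KO libraries, and the log2 difference of 0.54 ± 0.21 was not called (edgeR adjusted p = 0.131). Without the 2 WT libraries that stand apart it was 0.78 and was called (edgeR adjusted p = 0.0239). The call in activated cells was lost with either KO line alone (0.79 with KO1, 0.75 with KO2), against parental WT alone (0.75) and on leaving out culture 1 or 2 of parental WT, culture 2 of the WT clone or culture 3 of KO1 or KO2, with values from 0.66 to 0.93 over all libraries left out in turn.

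RefSeq (GRCm38.p6) gives promoter windows, 250 bases before to 50 bases after a gene start, for Ebf1 and Bank1 among the 5 genes, 3 windows in all. One Ebf1 window, at chr11:44619978-44620277 on the plus strand, is shown because it lies wholly inside a measured region, chr11:44619233-44620673, so that region counts RNA across an annotated start. The capitals mark the 50 bases from the annotated start onward.
Ebf1 promoter: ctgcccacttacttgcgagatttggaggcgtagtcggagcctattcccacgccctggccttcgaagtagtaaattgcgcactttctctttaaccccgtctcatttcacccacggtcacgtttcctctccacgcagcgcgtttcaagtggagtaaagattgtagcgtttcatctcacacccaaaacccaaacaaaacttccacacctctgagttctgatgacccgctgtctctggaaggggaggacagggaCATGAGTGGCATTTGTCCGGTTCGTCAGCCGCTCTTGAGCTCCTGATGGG
That region held 3.27% of the Ebf1 counts. It averaged 0.806 ± 0.128 CPM in activated KO lines and 0.655 ± 0.315 CPM in activated WT lines, a difference that was not called (log2 0.37 ± 0.28). In unactivated cells it averaged 1.17 ± 0.339 CPM in KO lines and 0.634 ± 0.371 CPM in WT lines and was called higher in KO (log2 0.98 ± 0.29, edgeR adjusted p = 0.0442). The groups overlapped in both states. The other Ebf1 window ends 1084 bases before the nearest region and is not shown.

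Within Ebf1, 20 regions were tested, and 20 of 20 had a positive KO minus WT value in activated cells. The median of all gene values was also positive there (0.07), and the regions share libraries, so their signs are not separate results. Only 1 was called, against 5.71% of all regions called higher. In unactivated cells 2 of the 20 were called higher, against 3.8% of all regions. The 1 called in activated cells is the region with the most counts, chr11:44892641-44902692, which starts 274541 bases into the span, with 20.6% of the gene's counts. Its activated values were 10.9, 11.2 and 12.7 CPM in KO1 and 9.68, 8.93 and 11.7 CPM in KO2, against 3.06, 3.70 and 4.12 CPM in parental WT and 2.90, 2.25 and 4.68 CPM in the WT clone. All KO libraries were above all WT libraries, which held for 4.59% of regions. The region's log2 change was 1.65 ± 0.23 (edgeR adjusted p = 0.000117). In unactivated cells its values were 3.31 to 4.07 CPM in KO lines and 1.21 to 4.47 CPM in WT lines, and the log2 difference of 0.61 ± 0.23 was not called (edgeR adjusted p = 0.144). Within KO lines the region rose on activation (log2 1.60 ± 0.23, edgeR adjusted p = 5.89e-05), as did 19.6% of all regions. The difference between the genotypes in this activation change was 1.04 ± 0.33 and was not called (edgeR adjusted p = 0.178). Without this region the activated KO minus WT value of the gene was 0.50 and was not called (edgeR adjusted p = 0.156). The next region by counts, chr11:44661679-44665704, held 14.0% and was not called in either state (0.76 ± 0.29 activated, 0.77 ± 0.29 unactivated; edgeR adjusted p = 0.169 and 0.139).

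Blk lies at chr14:63372837-63417187, with 4 regions covering 27.7% of the span and 2998 counts over all libraries. Its activated values were 2.66, 2.76 and 3.48 CPM in KO1 and 6.16, 4.28 and 6.61 CPM in KO2, against 2.66, 1.91 and 2.19 CPM in parental WT and 1.13, 0.639 and 1.05 CPM in the WT clone. KO2 stood above all other lines and the WT clone below them, while the lowest KO1 and the highest parental WT library were equal to 3 digits. The means were 4.33 ± 1.70 CPM in KO lines and 1.60 ± 0.777 CPM in WT lines (SD, n = 6 each), a log2 change of 1.49 ± 0.17 or 2.81-fold (edgeR adjusted p = 7.83e-07). The size of the change depended on the lines entered: it was 1.03 with KO1 alone, 1.96 with KO2 alone, 0.85 against parental WT alone and 2.12 against the WT clone alone, called in each (edgeR adjusted p from 0.0109 to 1.77e-06). The lines of a genotype also differed: the WT clone was lower than parental WT by a log2 value of -1.26 ± 0.25 (edgeR adjusted p = 0.0428, where 0.0669% of gene values were called lower), a call that no fit with a single library removed kept (-1.41 to -1.05 over the 6 libraries). KO2 minus KO1 was 0.94 ± 0.23 and was not called by edgeR (adjusted p = 0.155, where 0.156% of gene values were called), while DESeq2 called it (0.92, adjusted p = 0.00339).

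In unactivated cells Blk had 5.65, 5.71 and 5.35 CPM in KO1 and 7.16, 4.95 and 5.23 CPM in KO2, against 3.78, 3.47 and 4.63 CPM in parental WT and 5.16, 4.61 and 3.31 CPM in the WT clone. The groups overlapped and the log2 difference of 0.45 ± 0.16 was not called (edgeR adjusted p = 0.100). Blk was lower in activated than in unactivated WT lines, with no overlap of their 6 and 6 libraries, at a log2 change of -1.51 ± 0.17 (edgeR adjusted p = 2.08e-07), or -1.69 relative to the median of all gene values. Values this far down were uncommon, with 5.44% of gene values called lower and 2.23% with all activated WT libraries below all unactivated ones. In KO lines the activation change was -0.47 ± 0.16 (-0.74 relative to the median; edgeR adjusted p = 0.0303, 4.19% of gene values called lower). Between the KO lines it was uneven: KO1 had means of 2.97 CPM activated and 5.57 CPM unactivated, and KO2 had 5.68 CPM activated and 5.78 CPM unactivated. With KO2 alone the change was -0.02 and was not called (edgeR adjusted p = 0.968), and with KO1 alone it was -0.90. The call was also lost on leaving out culture 1 or 2 of KO1 in either state, unactivated culture 1 of KO2 or activated culture 2 of KO2 (-0.54 to -0.38 over the 12 libraries). The activation change differed between KO and WT lines by 1.04 ± 0.23 (edgeR adjusted p = 0.0304), where 0.557% of gene values were called in either direction. That difference was not called with KO1 alone (0.60), against parental WT alone (0.33), with counts summed per line (0.96) or without the 2 libraries that stand apart (0.96; edgeR adjusted p = 0.0663). With single libraries removed it was lost for 13 of 24, with values from 0.94 to 1.13 over all 24. The 13 were activated culture 2 or 3 of parental WT, unactivated culture 1 or 2 and activated culture 2 of the WT clone, each unactivated culture and activated culture 3 of KO1, and unactivated culture 2 or 3 and activated culture 1 or 3 of KO2.

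Of the 3 Blk regions tested, 3 were called higher in activated KO lines, where 5.71% of all regions were called higher. The region chr14:63377180-63377957, with 19.1% of the counts, had 0.405 to 1.30 CPM in activated KO libraries and 0.0608 to 0.386 CPM in activated WT libraries. All KO libraries were above all WT libraries, which held for 4.59% of regions. The region's log2 change was 2.14 ± 0.21 (edgeR adjusted p = 1.41e-06). In WT lines it fell on activation (log2 -2.37 ± 0.21, edgeR adjusted p = 1.34e-07), as did 4.97% of all regions, and its activation change differed between the genotypes by 1.70 ± 0.28 (edgeR adjusted p = 0.00309). The region chr14:63381697-63383936, with 12.3%, gave 1.71 ± 0.45 (edgeR adjusted p = 0.0245), and the longest, chr14:63407636-63416025, with 66.7% of the counts, gave 1.34 ± 0.19 (edgeR adjusted p = 0.000132). For these other 2 the difference between the genotypes in activation was not called (1.11 ± 0.60 for the 12.3% region and 0.87 ± 0.27 for the longest; edgeR adjusted p = 0.579 and 0.163). None of the 3 was called between KO and WT lines in unactivated cells.

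Bank1 lies at chr3:136053363-136326141, with 13 regions covering 9.16% of the span and 2676 counts, the fewest of the 5 genes. Its RefSeq promoter window, chr3:136326017-136326316 on the minus strand, is shown because it holds letters of the EBF1 core. In it the capitals mark 1 match to CCCNNGGG and 1 match to the E-box CAGGTG, which is written here as its reverse complement.
Bank1 promoter: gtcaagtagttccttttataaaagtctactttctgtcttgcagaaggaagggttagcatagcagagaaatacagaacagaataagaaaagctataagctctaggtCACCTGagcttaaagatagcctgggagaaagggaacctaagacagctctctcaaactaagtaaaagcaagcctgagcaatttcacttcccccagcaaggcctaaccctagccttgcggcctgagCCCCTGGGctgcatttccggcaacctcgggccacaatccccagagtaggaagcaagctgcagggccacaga
Searched on both strands, CCCNNGGG was found in 13.7% of 32851 RefSeq mouse promoter windows and CAGGTG in 20.2%. The octamer ATGCAAAT, found in 1.74%, had no match in this window, and none of the 3 motifs matched either Ebf1 window. The nearest measured region lies 1508 bases away, so no region RNA was read across this start.

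In activated cells Bank1 had 2.89, 2.60 and 5.17 CPM in KO1 and 3.97, 2.95 and 4.53 CPM in KO2, against 1.88, 2.45 and 2.88 CPM in parental WT and 1.92, 1.82 and 2.88 CPM in the WT clone. The groups overlapped at their edges, with means of 3.68 ± 1.03 CPM in KO lines and 2.30 ± 0.497 CPM in WT lines (SD, n = 6 each) and a log2 change of 0.68 ± 0.21 (edgeR adjusted p = 0.0375). In unactivated cells it had 4.74, 5.81 and 3.87 CPM in KO1 and 5.74, 4.45 and 4.85 CPM in KO2, against 2.14, 2.84 and 4.06 CPM in parental WT and 3.09, 4.20 and 2.26 CPM in the WT clone. The log2 change was 0.66 ± 0.20 (edgeR adjusted p = 0.0451), and the activation change differed between genotypes by 0.01 ± 0.28 (edgeR adjusted p = 0.998). Both calls were lost with any 1 line taken alone for its genotype. The activated call was also lost on leaving out culture 1 or 2 of parental WT or of the WT clone, culture 3 of KO1 or culture 1 or 3 of KO2 (0.49 to 0.79 over all 12 libraries). The unactivated call was lost for 9 of the 12 single libraries removed (0.57 to 0.80 over all 12), the exceptions being culture 3 of parental WT, culture 2 of the WT clone and culture 3 of KO1. Without the 2 libraries that stand apart the unactivated value was 0.93. Of 6 regions tested, 6 of 6 had positive KO minus WT values in each state, but they share libraries and are not separate results. The median of all gene values was 0.07 in activated and -0.04 in unactivated cells. A single region was called higher in both, where 5.71% of all regions were called higher in activated and 3.8% in unactivated cells. This was chr3:136238571-136239450 with 6.80% of the counts (1.75 ± 0.34 activated and 1.13 ± 0.30 unactivated; edgeR adjusted p = 0.00263 and 0.0269). The region with the most counts, chr3:136300076-136309126 with 39.9%, was called in neither (0.38 ± 0.27 and 0.34 ± 0.27; edgeR adjusted p = 0.585 and 0.573).

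Prkce spans chr17:86167785-86657919, and 27 regions covering 6.44% of it held 4646 counts. The activated libraries gave 7.14, 5.51 and 9.14 CPM in KO1 and 8.57, 5.98 and 9.36 CPM in KO2, against 3.27, 2.98 and 5.99 CPM in parental WT and 3.84, 2.16 and 4.62 CPM in the WT clone. Only the highest parental WT culture reached into the KO range, and the means were 7.62 ± 1.65 CPM in KO lines and 3.81 ± 1.35 CPM in WT lines (SD, n = 6 each), a log2 change of 1.00 ± 0.21 (edgeR adjusted p = 0.00226). In unactivated cells it had 7.27, 7.14 and 6.59 CPM in KO1 and 11.7, 8.94 and 9.06 CPM in KO2, against 3.62, 4.37 and 7.47 CPM in parental WT and 3.25, 4.13 and 2.70 CPM in the WT clone. The means were 8.44 ± 1.87 CPM in KO lines and 4.26 ± 1.68 CPM in WT lines, with a log2 change of 1.00 ± 0.21 (edgeR adjusted p = 0.00352). With all libraries Prkce was thus higher in KO lines by 2.00-fold in both states. Its activation change was -0.13 ± 0.21 in KO and -0.13 ± 0.21 in WT lines, called in neither (edgeR adjusted p = 0.693 and 0.720). The highest unactivated WT value, 7.47 CPM, came from 1 of the 2 WT libraries that stand apart. Without these 2 the unactivated KO minus WT call was kept, and the activation value in WT lines was 0.14. Over all settings other than single libraries left out, the unactivated KO minus WT value ranged from 0.49 to 1.31 and the activated one from 0.51 to 1.10. With KO1 alone both calls were lost (0.94 activated, 0.75 unactivated; edgeR adjusted p = 0.0606 and 0.165), and against parental WT alone the unactivated one was lost (0.70; edgeR adjusted p = 0.154).

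The KO difference in Prkce was called in 2 of the 6 regions tested, in both states. Of all regions, 5.71% were called higher in activated and 3.8% in unactivated cells. The 2 Prkce regions lie next to each other among the tested ones, with 1 untested region between them. The first by counts, chr17:86352533-86354574, held 36.2% of the gene's counts. In activated cells it had 3.21, 2.17 and 3.48 CPM in KO1 and 4.35, 2.34 and 4.83 CPM in KO2, against 0.636, 0.848 and 1.69 CPM in parental WT and 0.598, 0.213 and 1.10 CPM in the WT clone. No WT library reached the lowest KO library there in either state, which held for 4.59% of regions in activated and 2.83% in unactivated cells. The log2 changes were 2.03 ± 0.34 activated and 2.17 ± 0.34 unactivated (edgeR adjusted p = 0.000551 and 0.000285). The other, chr17:86336421-86338786 with 6.99% of the counts, gave 1.89 ± 0.43 and 2.21 ± 0.43 (edgeR adjusted p = 0.00849 and 0.00268), also without overlap. In contrast, chr17:86376049-86381989 with 12.8% of the counts gave 0.21 ± 0.37 activated and 0.32 ± 0.37 unactivated, and chr17:86184716-86188424 with 11.7% gave 0.34 ± 0.29 and 0.01 ± 0.30, neither called. Without the first region the gene's values were 0.51 activated and 0.49 unactivated and were not called (edgeR adjusted p = 0.166 and 0.219).

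Hvcn1 spans chr5:122206805-122242297, and 4 regions covering 31.5% of it held 9300 counts. When activated it had 16.9, 15.1 and 15.0 CPM in KO1 and 22.1, 21.1 and 17.7 CPM in KO2, against 7.17, 9.14 and 7.03 CPM in parental WT and 7.72, 5.84 and 6.04 CPM in the WT clone. The lowest KO library, at 15.0 CPM, lay well above the highest WT library, at 9.14 CPM. All KO libraries were above all WT libraries in 3.75% of all gene values. The means were 17.97 ± 3.02 CPM in KO lines and 7.16 ± 1.20 CPM in WT lines (SD, n = 6 each), a log2 change of 1.32 ± 0.16 or 2.50-fold (edgeR adjusted p = 2.21e-06), and the call held with each line alone and with each library left out in turn. In unactivated cells Hvcn1 had 12.2, 10.9 and 13.7 CPM in KO1 and 16.3, 13.0 and 15.6 CPM in KO2, against 7.49, 7.34 and 11.2 CPM in parental WT and 8.71, 15.4 and 8.17 CPM in the WT clone. The groups overlapped through the 2 WT libraries that stand apart, and the log2 difference of 0.49 ± 0.16 was not called (edgeR adjusted p = 0.0705). Without these 2 libraries it was 0.78 and was called (edgeR adjusted p = 0.000385), as it was without either one of them.

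The region chr5:122229941-122235384 held 70.1% of the Hvcn1 counts. In activated cells it had 12.0, 10.5 and 10.6 CPM in KO1 and 16.8, 15.2 and 13.6 CPM in KO2, against 4.19, 3.86 and 4.06 CPM in parental WT and 4.35, 3.47 and 3.40 CPM in the WT clone. In unactivated cells it had 9.33, 8.47 and 11.2 CPM in KO1 and 12.8, 10.7 and 13.1 CPM in KO2, against 5.69, 5.34 and 5.86 CPM in parental WT and 6.47, 5.56 and 6.58 CPM in the WT clone. All KO libraries were above all WT libraries in either state, which held for 4.59% of regions in activated and 2.83% in unactivated cells. KO2 was above KO1 on average in both states. The log2 changes were 1.74 ± 0.10 in activated cells (edgeR adjusted p = 1.81e-09) and 0.88 ± 0.10 in unactivated cells (edgeR adjusted p = 5.45e-06). The KO minus WT difference was larger in activated cells, by 0.86 ± 0.14 (edgeR adjusted p = 0.00237, where 0.573% of regions were called higher). In WT lines the region fell on activation (-0.60 ± 0.10, edgeR adjusted p = 0.000136), while in KO lines the value was 0.25 ± 0.10 and was not called (edgeR adjusted p = 0.0732). The second region, chr5:122218773-122220942 with 17.3% of the counts, was called in neither state (0.56 ± 0.46 activated, -0.78 ± 0.46 unactivated; edgeR adjusted p = 0.664 and 0.400). In unactivated cells it read 7.74 CPM in culture 2 of the WT clone and 3.87 CPM in culture 3 of parental WT, against 0.795 to 1.12 CPM in the other WT cultures and 1.09 to 2.05 CPM in KO cultures. Without the first region the gene's value was 0.58 in activated cells (edgeR adjusted p = 0.303) and -0.48 in unactivated cells (edgeR adjusted p = 0.455).

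**Figure D3:**
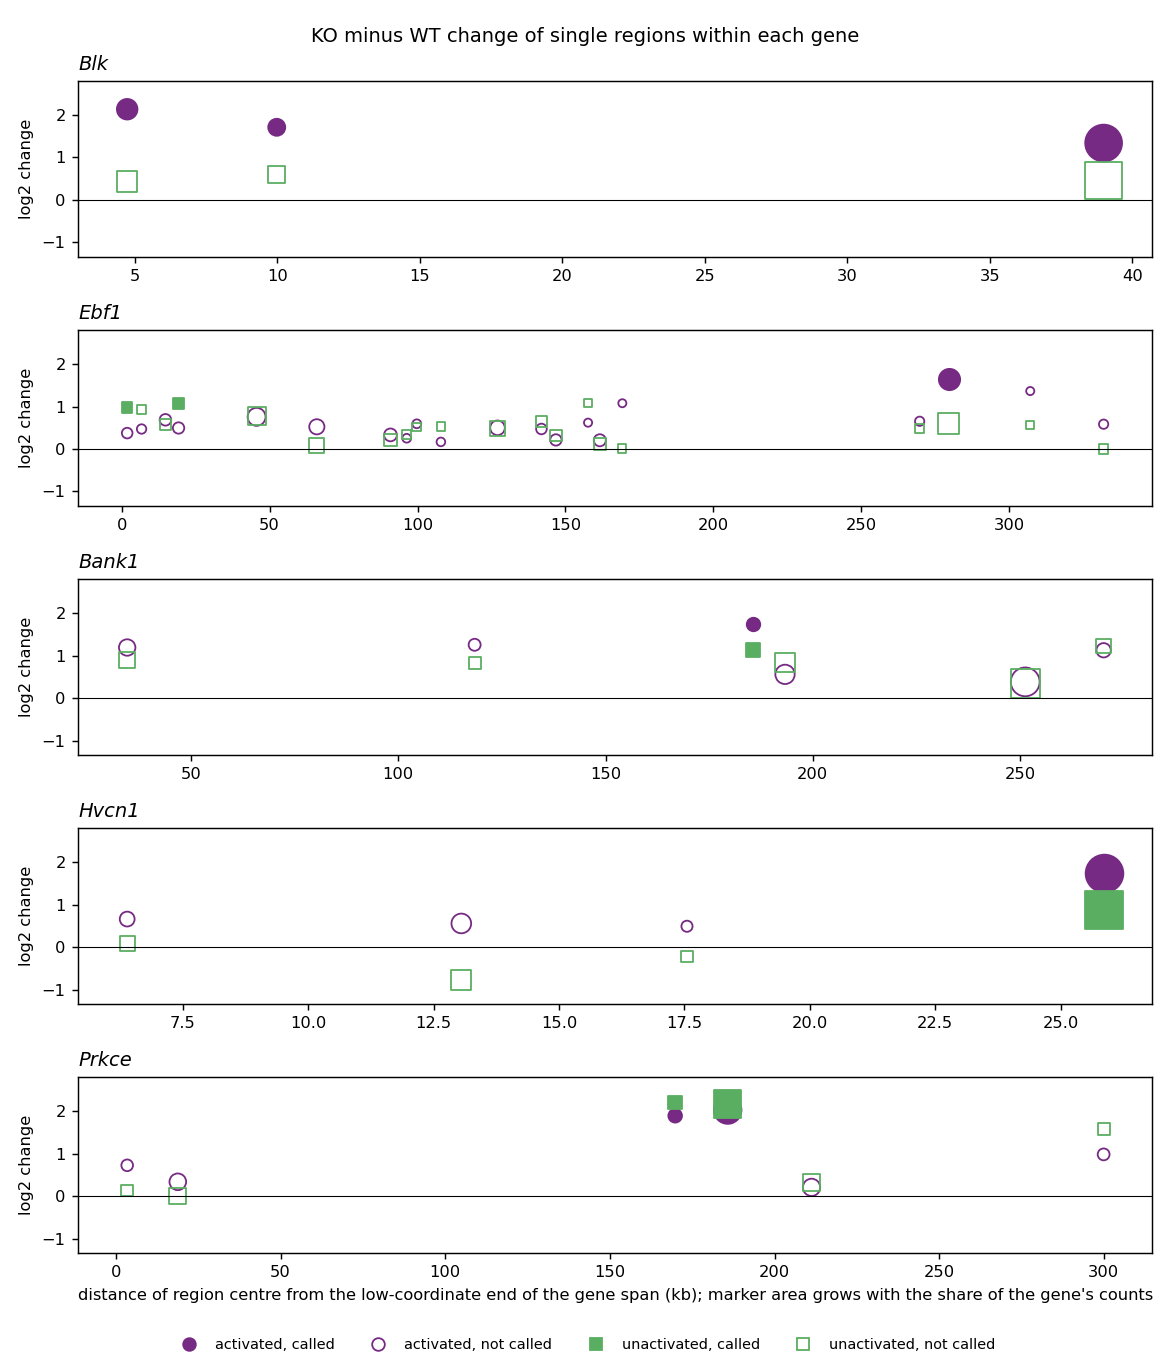
KO minus WT log2 change of every tested region of the 5 genes, in activated (circles) and unactivated (squares) cells, against the distance of the region's centre from the low-coordinate end of the gene; filled markers were called, and marker area grows with the region's share of the gene's counts. In Hvcn1 the rightmost region is called in both states and the other 3 in neither, and in Prkce the called regions are next to each other among the tested ones.

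**Figure D4:**
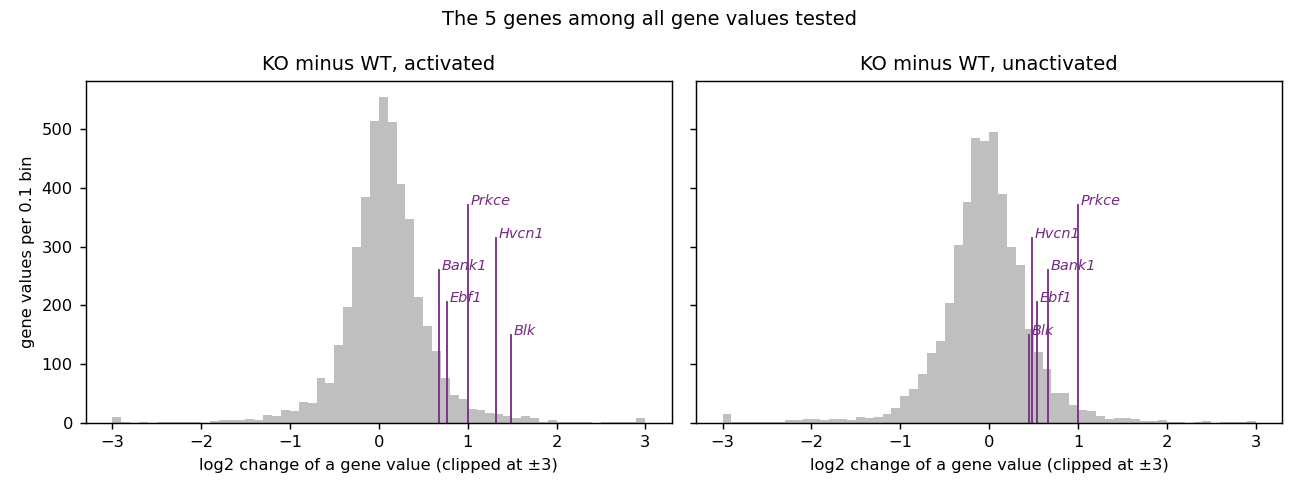
Histogram of the KO minus WT log2 change of all 4485 gene values in activated and unactivated cells, with vertical lines at the values of the 5 genes (line heights are for legibility only). The 5 genes lie to the right of the peak in both panels, from 0.68 to 1.49 in activated cells and from 0.45 to 1.00 in unactivated cells.

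On activation, Ebf1 was the only 1 of the 5 genes called higher, in KO lines (36.2 ± 5.44 CPM activated and 24.4 ± 3.79 CPM unactivated; log2 0.57 ± 0.21, 0.30 relative to the median; edgeR adjusted p = 0.0397, where 24.1% of gene values were called higher). That call was lost when libraries were scaled on region counts (0.27) or by relative log expression (0.54), without the region with the most counts (0.29), with counts summed per line (0.53) and in KO1 or KO2 alone (0.71 and 0.45). It was lost as well for 9 of the 12 single KO libraries removed (0.50 to 0.65 over all 12), the exceptions being activated culture 2 of KO1, unactivated culture 1 of KO2 and activated culture 2 of KO2. In WT lines the Ebf1 value was 0.35 ± 0.21 (edgeR adjusted p = 0.249). Hvcn1 had -0.44 ± 0.16 in WT lines and 0.40 ± 0.16 in KO lines (edgeR adjusted p = 0.0512 and 0.0636), opposite in sign, and its genotype difference in activation was 0.84 ± 0.23 (edgeR adjusted p = 0.0821). Bank1 had -0.41 ± 0.20 in KO lines and -0.42 ± 0.21 in WT lines (edgeR adjusted p = 0.125 and 0.153), which is -0.69 and -0.61 relative to the medians. Scaled on region counts, Bank1 was called lower on activation in both genotypes (-0.72 in KO, -0.62 in WT). The medians of all gene values on activation were 0.28 in KO lines and 0.18 in WT lines with the scaling used, and -0.02 in both when libraries were scaled on region counts. Between lines of one genotype no gene of the 5 other than Blk was called in either state.

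The other genes of these pathways were read from lists by name, also chosen with earlier results of these data known. Of 27 B cell identity genes apart from Ebf1, 18 were tested, and 4 rose and 0 fell in activated KO lines. Their median log2 value was 0.26 beside 0.07 for all gene values, of which 6.35% were called higher and 2.34% lower. In unactivated cells 2 rose and 1 fell, with a median of -0.05 beside -0.04 for all gene values, of which 3.14% were called lower. Bach2, whose product represses the plasma cell program, rose in both states, with 15.9 ± 1.86 CPM in KO and 10.99 ± 1.94 CPM in WT lines when activated and 8.55 ± 1.33 CPM in KO and 4.50 ± 1.26 CPM in WT lines when not (log2 0.53 ± 0.15 and 0.93 ± 0.15; edgeR adjusted p = 0.0192 and 0.00017). Tcf4, an E protein, rose in activated cells (0.87 ± 0.22, edgeR adjusted p = 0.00855), and Ets1 rose in unactivated cells (0.81 ± 0.19, edgeR adjusted p = 0.00758). Irf8 fell in unactivated KO lines, at a low level (0.135 ± 0.0821 CPM in KO and 0.851 ± 0.470 CPM in WT lines; log2 -2.60 ± 0.42, edgeR adjusted p = 0.000185). Pax5 was close in the lines, at 11.9 ± 1.28 CPM in activated KO and 12.2 ± 2.07 CPM in activated WT lines (log2 -0.04 ± 0.19).

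Of 32 genes of B cell receptor signalling, 29 were tested, and 3 rose and 1 fell in activated KO lines, with a median of 0.09 beside 0.07 for all gene values, of which 6.35% were called higher and 2.34% lower. In unactivated cells 2 rose and 1 fell, with a median of -0.15 beside -0.04 for all gene values, of which 3.46% were called higher and 3.14% lower. Nfatc1, a calcium-controlled transcription factor downstream of the receptor, rose in both states, with 25.3 ± 5.63 CPM in KO and 12.0 ± 2.16 CPM in WT lines when activated (log2 1.06 ± 0.16, edgeR adjusted p = 5.94e-05) and 24.0 ± 3.87 CPM in KO and 13.3 ± 2.85 CPM in WT lines when not (0.85 ± 0.16, edgeR adjusted p = 0.00116). Rasgrp3, which activates Ras downstream of diacylglycerol, rose in activated cells (0.63 ± 0.14, edgeR adjusted p = 0.00289), as did Inpp5d, a lipid phosphatase that dampens the receptor (0.63 ± 0.17, edgeR adjusted p = 0.0178). Ptpn6, an inhibitory tyrosine phosphatase, rose in unactivated cells (0.62 ± 0.16, edgeR adjusted p = 0.0133). Syk, the kinase that relays the receptor's signal, fell in activated KO lines (5.47 ± 1.46 CPM in KO and 8.37 ± 2.48 CPM in WT lines; -0.62 ± 0.19, edgeR adjusted p = 0.038). Lat2, an adaptor, fell in unactivated KO lines at a low level (0.0895 ± 0.0367 CPM in KO and 0.242 ± 0.0791 CPM in WT lines; -1.41 ± 0.40, edgeR adjusted p = 0.0285). Without the 2 libraries that stand apart the unactivated counts were 4 higher and 0 lower of 30 tested in this list, and 3 higher and 1 lower of 18 in the identity list. Calls among all gene values also moved, from 155 higher of 4485 tested with all libraries to 194 higher of 4673 tested without the 2.

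Among relatives and opponents of the 5 genes, most were not called. As a background for these lists, calls of higher RNA in KO lines made up 6.35% of the 4485 tested values in activated cells. In unactivated cells they made up 3.46%. Calls of lower RNA in KO lines made up 2.34% in activated and 3.14% in unactivated cells. Of 6 other Src family kinases tested, Lck was called higher in both states (log2 1.33 ± 0.28 activated and 1.03 ± 0.28 unactivated; edgeR adjusted p = 0.00221 and 0.021), at 0.566 ± 0.228 CPM in activated KO and 0.221 ± 0.0567 CPM in activated WT lines; its unactivated call was lost without the 2 libraries that stand apart. Of 7 other protein kinase C genes, 0 were called in activated cells, and Prkcz was lower in unactivated KO lines (-0.73 ± 0.18, edgeR adjusted p = 0.0122). Of 5 tested genes of the membrane oxidase that works with HVCN1, Cyba rose in activated KO lines (8.69 ± 1.03 CPM in KO and 6.11 ± 1.08 CPM in WT lines; 0.51 ± 0.16, edgeR adjusted p = 0.0442). The other 3 EBF family genes had regions but too few counts to be tested. Of 6 tested genes of the plasma cell program, 2 rose in activated KO lines and 0 fell, with a median of 0.51 beside 0.07 for all gene values, of which 6.35% were called higher and 2.34% lower. They were Prdm1 (0.559 ± 0.174 CPM in KO and 0.236 ± 0.116 CPM in WT lines; 1.32 ± 0.25, edgeR adjusted p = 0.000846) and Irf4 (3.65 ± 0.553 CPM in KO and 1.98 ± 0.367 CPM in WT lines; 0.89 ± 0.19, edgeR adjusted p = 0.00208). From the list of T cell markers, Il7r was called higher in activated KO lines at a low level (0.348 ± 0.157 CPM in KO and 0.121 ± 0.0813 CPM in WT lines; 1.52 ± 0.42, edgeR adjusted p = 0.019). Thy1, the other marker of that list with regions, averaged 0.0386 CPM over all libraries. Summed with Thy1, Il7r reached at most 0.289 CPM in activated WT, 0.187 CPM in unactivated KO and 0.133 CPM in unactivated WT libraries. Il7r thus passed the filter for low values through its activated KO libraries, so its call there is not an independent test. The part of other cell types in the results was not tested.

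As a description over the 24 libraries, which share lines, cultures and depth, Prkce and Bank1 varied together most among the 5 genes (Pearson r of log2(CPM + 0.5) = 0.839) and Ebf1 and Blk least (r = 0.229). Among 367 gene values of at least 5 CPM in a group, the nearest to Ebf1 were Camk2d, a calcium-regulated kinase subunit (r = 0.923), Abcc4 (0.919) and the E protein gene Tcf12 (0.888). Those nearest to Blk were Adamts14 (0.901), the cytokine gene Il10 (0.887) and Plek (0.856). Nearest to Bank1 were Il5ra, the interleukin 5 receptor chain (0.905), Prkce (0.839) and Plek (0.807), and nearest to Prkce were Nfatc1 (0.916), Il5ra (0.864) and Bank1 (0.839). Hvcn1 was followed most closely by Nfatc1 (0.877) and Tbc1d5 (0.857).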

How the data were processed

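Per the labels' protocols, total RNA was depleted of ribosomal RNA and made into strand-specific libraries that were read from 1 end. The authors deposited 1 table per library with expected counts (estimated counts, neither whole nor normalized) and TPM values for 171152 targets, 49745 of them numbered regions. Per the submitters' processing notes kallisto 0.43.0, DESeq2 and GRCm38.p5 were used. How regions were defined, and the strand setting, is not given in the sources used here. Deposited TPM values were not used. Another 9 samples (ChIP-seq, GRO-seq) are not analysed here.

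Estimated counts were summed per gene over regions inside exactly 1 RefSeq GRCm38.p6 gene and rounded. A whole-locus annotation entry without transcripts, of which there were 12, counted as no gene. Low values were removed by filterByExpr by group, which left 4485 of 10750 gene values, among them all 5 genes. Scaling was by the trimmed mean of M values over all targets. All 24 libraries entered 1 edgeR quasi-likelihood model with 8 group means (edgeR 4.0.16, limma 3.58.1, R 4.3.3), and 9 contrasts were tested, each with Benjamini-Hochberg correction over all gene values. SE is the log2 change divided by the square root of F. Single regions were tested in the same way among all targets. The scripts were tested on simulated data. Libraries of 1 group differed from each other beyond sampling noise (chi-square per degree of freedom 2.26 to 17.4) and were all kept as separate samples.

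The genes and lists were chosen with earlier results of these data known. Named are the 5 genes, their regions with at least 10% of the gene's counts, up to 4 called genes per list with the smallest adjusted p, and the 3 gene values most correlated with each gene, of which 1 is not reported here. Regions with a smaller share were named after their values were seen, as were Syk, Lat2, Pax5, Cd79a, Cd22 and Thy1. The labels number cultures 1 to 3 in each line. Deviations of same-numbered libraries correlated at 0.209 to 0.429 for KO minus WT in activated cells and at 0.103 to 0.346 for activation in WT lines. Same-numbered libraries were therefore taken as possibly paired there. For KO minus WT in unactivated cells and activation in KO lines the lowest values were 0.0354 and -0.0117, and no pairing was assumed. The main model held no term for culture number, so its p-values are unpaired in every comparison. The replicate block was fitted for all comparisons as an alternative. Alternatives were DESeq2 1.42.0, relative log expression scaling, no filter, a replicate block, any-overlap regions, the highest region left out, counts summed per line, fewer libraries in the fit, each line alone and each library left out. Scaling on region counts and leaving out 2 libraries were added after seeing the data.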

Additional observations from a re-analysis of the deposited data

Results flagged for a closer look

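Among 20 groups of 6 libraries (5 genes, 2 genotypes and 2 states), 3 held a library farther from the others than expected for samples of 1 group, and chance alone marks about 1 group in 20. Blk reached 7.16 CPM in culture 1 of unactivated KO2, against 4.95 to 5.71 CPM in the other unactivated KO cultures. Ebf1 reached 31.6 CPM in the same culture, against 21.3 to 24.7 CPM in the others. Prkce reached 7.47 CPM in culture 3 of unactivated parental WT, against 2.70 to 4.37 CPM in the other unactivated WT cultures, and that library also correlated poorly with its group.

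The activation change of Blk differed between KO and WT lines by a log2 value of 1.04 in the test of the difference itself (edgeR adjusted p = 0.0304). It ranged from 0.33 to 1.74 over the other settings and was called in 9 of 13 of them.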

How the results depend on the processing

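Of 485 values of the 5 genes over 9 comparisons and all settings but single libraries left out, 34 lost and 25 gained a call. Over all 965 values, 75 had the other sign, none of them called. Of these, 5 lay more than 1 SE away from the value of the main model. Hvcn1 in unactivated KO minus WT was -0.48 without the highest region. Prkce on activation of WT lines was 0.14 without the 2 libraries that stand apart. The rest were between WT lines, with single libraries left out. There Hvcn1 ranged from -0.0406 to 0.535 in unactivated cells, and Ebf1 from -0.278 to 0.313 and Prkce from -0.445 to 0.180 in activated cells. The causes were not tested.

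For KO minus WT in unactivated cells, 2 of the 5 genes were called, but 1 without the highest region, with only the libraries compared, with KO2 alone or against parental WT alone, 0 with KO1 alone, 3 by DESeq2, 4 without the 2 libraries that stand apart and 5 with scaling on region counts. In activated cells 5 were called, but 2 without the highest region or with KO1 alone, 3 with KO2 alone or against parental WT alone and 4 against the WT clone alone. For activation in WT lines 1 was called, but 2 by relative log expression, DESeq2, any overlap, without the highest region, with the WT clone alone or without the 2 libraries, and 3 with scaling on region counts. For activation in KO lines 2 were called, but 1 by relative log expression, without filter, summed per line or in KO1 alone, 0 in KO2 alone and 3 without the highest region, with only the libraries compared or without the 2 libraries. For the difference in activation 1 was called, but 2 by DESeq2 or against the WT clone alone, and 0 summed per line, with KO1 alone, against parental WT alone or without the 2 libraries. For the WT clone against parental WT, activated, 1 was called, but 0 without the highest region or with only the libraries compared. For KO2 against KO1, activated, 0 were called (7 of all gene values), but 1 by DESeq2. With single libraries left out the counts ranged from 1 to 4, 3 to 5, 1 to 2, 0 to 2 and 0 to 2 in the first 5 comparisons and were 0 to 0 between lines.

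The replicate block changed no call of the 5 genes, and the members called stayed at 2, 5, 1, 2 and 1. It moved the calls among all gene values for the difference in activation to 45, against 25 without it. Among all gene values 296 were called in unactivated and 390 in activated KO minus WT. Without the 2 libraries that stand apart these counts were 314 and 457, and with scaling on region counts 347 and 404. Without the highest region these counts were 84 and 129, with any overlap 532 and 640, with KO1 alone 127 and 145, with KO2 alone 133 and 302, against parental WT alone 141 and 199, and summed per line 215 and 253. For activation in WT and KO lines 982 and 1268 were called, 420 and 595 without the highest region and 1484 and 1861 with any overlap. For WT lines 514 were called in parental WT alone and 616 in the WT clone alone, and for KO lines 630 in KO1 alone and 597 in KO2 alone. For the difference in activation 81 were called without filter, 56 by DESeq2, 76 with any overlap, 7 without the highest region, 0 summed per line or with KO1 alone, 8 with KO2 alone, 1 against parental WT alone and 14 to 39 with single libraries left out. Bank1 and Blk rest on the fewest counts of the 5 genes, 2676 and 2998 over 24 libraries.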
